A study of Mus musculus with 3 samples.

Results

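The 10 genes described here carry out antigen presentation by MHC class I: H2-K1, H2-D1, B2m, Tap1, Tap2, Tapbp, Psmb8, Psmb9, Psmb10 and Nlrc5. They were chosen by symbol, were all found once among the 55401 genes listed in the deposited matrices, and were all at 50 CPM (counts scaled to the total of a cell class in a library) or more in each cell class and library examined. The cells were CD45+ leukocytes sorted live from subcutaneous grafts of YUMM1.7, a mouse melanoma line, grown in mice of 3 ages. Each of the groups at 4 months, 12 months and 20 months was given 500000 tumour cells, held 7 mice and was sampled after 18 days, and gave 1 library made with PIP-seq, a droplet method that reads the 3′ ends of transcripts. Host strain and genotype are not given in the sources used here, nor is it said whether the mice of an age were pooled. Age and library therefore cannot be told apart, no p-value is given, and every interval below covers counting error only.

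MHC class I molecules show peptides from inside the cell to CD8 T cells and are also read by NK cells. The proteasome cuts proteins into peptides, the TAP transporter pumps these into the endoplasmic reticulum, and tapasin holds an empty heavy chain with its light chain, beta-2 microglobulin, next to TAP until a peptide binds. Interferon-gamma raises the genes of this pathway, among them 3 proteasome subunits that replace constitutive ones, and the regulator NLRC5 acts at a promoter module of X and Y boxes in class I genes.

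Of the 10 genes, 8 have an upstream sequence in the RefSeq table for GRCm38.p6, and Tap2 and Nlrc5 do not. H2-K1 (chr17:33996017-34000347), H2-D1 (chr17:35262730-35267499), Tap1 (chr17:34187553-34197225), Tap2 (chr17:34203527-34216321), Tapbp (chr17:33915899-33929292), Psmb8 (chr17:34197721-34201454) and Psmb9 (chr17:34181987-34187764) lie on chromosome 17. B2m lies at chr2:122147686-122153083, Psmb10 at chr8:105935735-105938444 and Nlrc5 at chr8:94434356-94527272, all as GENCODE M21 gives them on GRCm38. The 250 bases before the start of the heavy chain genes and of B2m are shown because these genes carry a shared arrangement, with matches in capitals, for H2-K1 at chr17:34000348-34000597 on the minus strand, H2-D1 at chr17:35262844-35263093 on the plus strand and B2m at chr2:122147437-122147686 on the plus strand.
H2-K1: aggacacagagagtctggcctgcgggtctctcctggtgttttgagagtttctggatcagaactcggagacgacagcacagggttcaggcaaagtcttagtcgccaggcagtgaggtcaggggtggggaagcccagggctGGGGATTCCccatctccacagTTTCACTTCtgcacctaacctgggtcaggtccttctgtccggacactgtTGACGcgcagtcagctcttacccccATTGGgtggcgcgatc
H2-D1: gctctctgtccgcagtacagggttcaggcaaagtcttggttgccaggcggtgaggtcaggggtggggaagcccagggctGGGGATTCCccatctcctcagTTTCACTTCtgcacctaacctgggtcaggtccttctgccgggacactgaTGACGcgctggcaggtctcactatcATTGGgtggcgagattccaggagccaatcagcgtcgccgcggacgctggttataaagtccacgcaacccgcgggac
B2m: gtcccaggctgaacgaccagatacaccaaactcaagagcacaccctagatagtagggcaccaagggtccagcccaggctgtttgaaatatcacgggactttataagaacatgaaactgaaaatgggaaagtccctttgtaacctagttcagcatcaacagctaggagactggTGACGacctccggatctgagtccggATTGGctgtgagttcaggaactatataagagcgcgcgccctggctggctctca
The capitals mark, in order along H2-K1 and H2-D1, an NF-kB motif (GGGNNTTCC), an interferon-stimulated response element (GAANNGAAA, here on the other strand), and a pair of X2 box (TGACG) and Y box (ATTGG) letters 20 bases apart. Of the letters searched, B2m holds only the pair in this window. It also holds gaaactgaaa, which is spaced differently from the response element letters searched, so a lack of such an element is not shown. Both strands were searched and no marked match overlaps another. The letters searched for NF-kB were shortened after these promoters had been seen. They occur in 5.001% of 32536 promoter windows of this length and the response element letters in 6.35%. The spacing of 20 bases was read from these 3 promoters before it was searched for, and it occurs in 30 windows (0.0922%). A match is a description of letters and not of binding.

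Tap1 and Psmb9 lie head to head on chromosome 17. Their RefSeq starts are separated by 225 bases, which are shared by both upstream windows, and the window of Tap1 at chr17:34187306-34187555 on the plus strand is shown for that reason.
Tap1: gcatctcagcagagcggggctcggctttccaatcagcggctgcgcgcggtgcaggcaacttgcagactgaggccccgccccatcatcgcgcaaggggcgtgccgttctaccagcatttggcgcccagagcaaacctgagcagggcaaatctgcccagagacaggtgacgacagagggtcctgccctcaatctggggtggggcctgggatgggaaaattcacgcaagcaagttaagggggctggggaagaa
None of the NF-kB, response element or spaced pair letters occurs in it, so it has no capitals. In GENCODE M21, on the same GRCm38 build, the 2 genes overlap in exons at their 5′ ends. Use of strand in counting is not given in the sources used here, so reads of overlapping exons could not be assigned independently. The same holds for Tap2 and Psmb8 with the antisense gene Gm20496, Tapbp with Gm19412 and with Zbtb22 on its own strand, and Nlrc5 with 9330175E14Rik. Among windows of 50 bases in the last 500 bases of the longest transcript, 9.53% of those of H2-D1 and 0.443% of those of H2-K1 also occur in other genes, and none of those of the other 8. H2-K1 and H2-D1 are polymorphic between strains, and the effect of strain on their counts was not tested.

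Depth was similar: 14393 to 14684 cells were deposited per age, with 6789 to 7411 counts in the median cell. Clusters found without the 10 genes were named from marker lists, giving 17601 T-like, 6086 NK-like, 6241 macrophage-like, 8317 monocyte-like and 2201 dendritic-like cells among 41097 retained cells. The labels call the cell type melanoma, whereas the named clusters were leukocytes apart from 134 fibroblast-like cells. The libraries shared 2 to 4 cell barcodes in pairs. Free RNA was present: the summed level of 5 T cell receptor complex genes in macrophage-like cells was 7.03%, 11.9% and 11.6% of that in T-like cells at 4, 12 and 20 months. No class lacks class I genes, so the free RNA of the genes themselves could not be measured.

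All 10 genes were read in every class, and the class with the highest mean level exceeded the lowest by 1.22-fold (Tapbp) to 1.77-fold (Nlrc5). After thinning each cell to 3000 counts, B2m was counted in 100% of T-like cells and H2-K1 in at least 99.1% of cells of any class and library. Nlrc5 was counted in 19.2% to 35.5% of cells, Tap2 in 23.4% to 35.6% and Tap1 in 33.9% to 57.3%. For the less abundant genes these shares follow the level, and a cell without a count is not a cell without the transcript.

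H2-K1, a classical heavy chain, was highest in NK-like cells at 4700, 4529 and 4525 CPM at 4, 12 and 20 months. It was at 4260, 3928 and 4018 CPM in T-like and 3890, 3783 and 3963 CPM in macrophage-like cells. It was lowest in monocyte-like cells, at 2705, 2723 and 2819 CPM, with dendritic-like cells just above at 2845, 2872 and 2869 CPM. The NK-like values lay above those of all other classes, T-like and macrophage-like values overlapped, and dendritic-like and monocyte-like values lay apart from them and, narrowly, from each other.

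H2-D1, the other classical heavy chain listed, was also highest in NK-like cells (4612 ± 271 CPM, SD over 3 libraries that differ in age). Macrophage-like (3999 ± 105 CPM) and T-like cells (3920 ± 316 CPM) overlapped, and the order of the lowest classes was the reverse of that for H2-K1, with monocyte-like cells (3414 ± 133 CPM) above dendritic-like cells (3020 ± 272 CPM). The count ratio of H2-D1 to H2-K1 was 1.24 ± 0.0734 in monocyte-like cells and between 0.963 and 1.06 on average in the other 4 classes. B2m, which encodes the light chain shared by class I molecules, followed a different order and was highest in macrophage-like cells, at 14682, 13516 and 13797 CPM. Dendritic-like cells had its lowest values, 8739, 8569 and 7963 CPM, and T-like and monocyte-like cells overlapped between them.

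**Figure D1:**
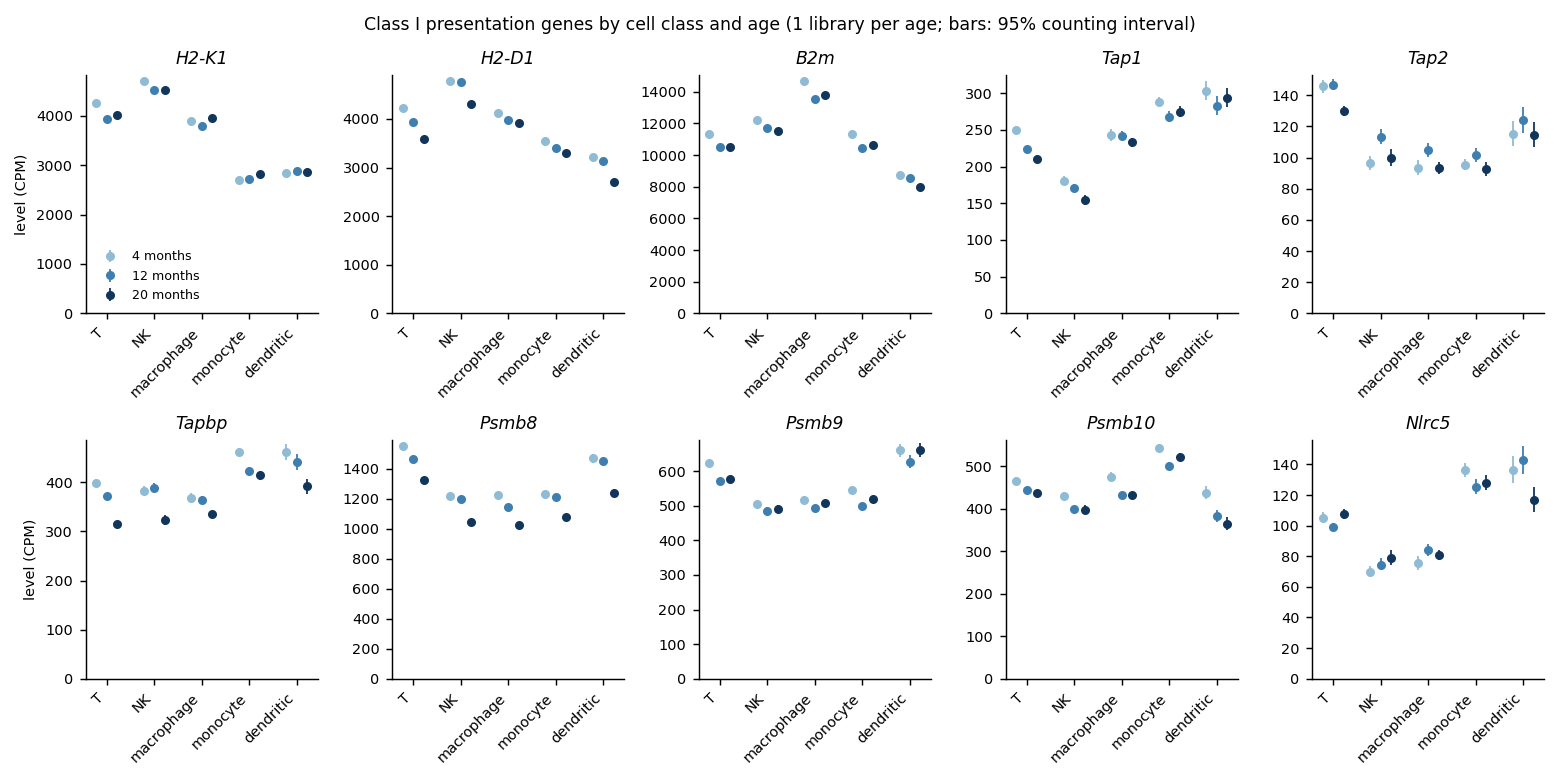
Level of each gene in CPM (vertical axis, from 0) in the 5 cell classes (horizontal axis), with 1 point per library, coloured by age, and bars for 95% counting intervals. H2-K1 and H2-D1 are highest in NK-like cells, B2m in macrophage-like cells, and Tap1 and Nlrc5 lowest in NK-like cells.

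The transporter genes had an order unlike that of the heavy chains. Tap1, which encodes a TAP subunit, was lowest in NK-like cells, at 181, 171 and 154 CPM, where the heavy chains were highest. Dendritic-like (293 ± 10.2 CPM) and monocyte-like cells (277 ± 10.5 CPM) overlapped at the top. Tap2, its partner subunit, was highest in T-like cells at 146, 147 and 130 CPM and lay between 92.5 and 124 CPM elsewhere. The count ratio of Tap2 to Tap1 was 0.619 ± 0.0355 in T-like and 0.615 ± 0.0718 in NK-like cells, against 0.407 ± 0.0242, 0.349 ± 0.0264 and 0.403 ± 0.0309 in macrophage-like, monocyte-like and dendritic-like cells. The lymphoid and myeloid ranges of this ratio did not overlap. Tapbp, which encodes tapasin, varied least between classes, with overlapping monocyte-like (433 ± 25.2 CPM) and dendritic-like (432 ± 35.8 CPM) values, against 356 to 365 CPM on average in the other 3 classes, which overlapped. The dendritic-like value at 20 months, 392 CPM, was below the T-like value at 4 months, 399.5 CPM, so these ranges overlapped too.

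The immunoproteasome subunits split the classes in another way. Psmb8 was at 1447 ± 116 CPM in T-like and 1387 ± 127 CPM in dendritic-like cells, which overlapped, and at 1131 to 1176 CPM on average in the other 3, which also overlapped. Psmb9 was highest in dendritic-like cells (660, 627 and 661 CPM), followed by T-like cells (625, 572 and 579 CPM) with no overlap. Psmb10 was highest in monocyte-like cells (523 ± 21.3 CPM) and lowest in dendritic-like cells (396 ± 37.6 CPM), the latter overlapping NK-like and macrophage-like cells.

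Set against the constitutive subunit that each replaces, Psmb8 over Psmb5 gave count ratios of 12.2 ± 0.307 in T-like and 9.27 ± 0.669 in NK-like cells, with no overlap. Dendritic-like cells had the highest mean (12.5 ± 1.69) and overlapped T-like cells. Macrophage-like (10.3 ± 0.789) and monocyte-like cells (10.6 ± 0.826) overlapped NK-like cells. Psmb9 over Psmb6 was 2.25 ± 0.152, 2.21 ± 0.0848 and 2.33 ± 0.108 in T-like, monocyte-like and dendritic-like cells, and 1.84 ± 0.0386 and 1.84 ± 0.0145 in NK-like and macrophage-like cells. Psmb10 over Psmb7 was lowest in dendritic-like cells (2.07 ± 0.15) and 3.003 ± 0.142 in monocyte-like cells. These ratios of counts are not corrected for transcript length and were compared only across classes and ages.

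**Figure D2:**
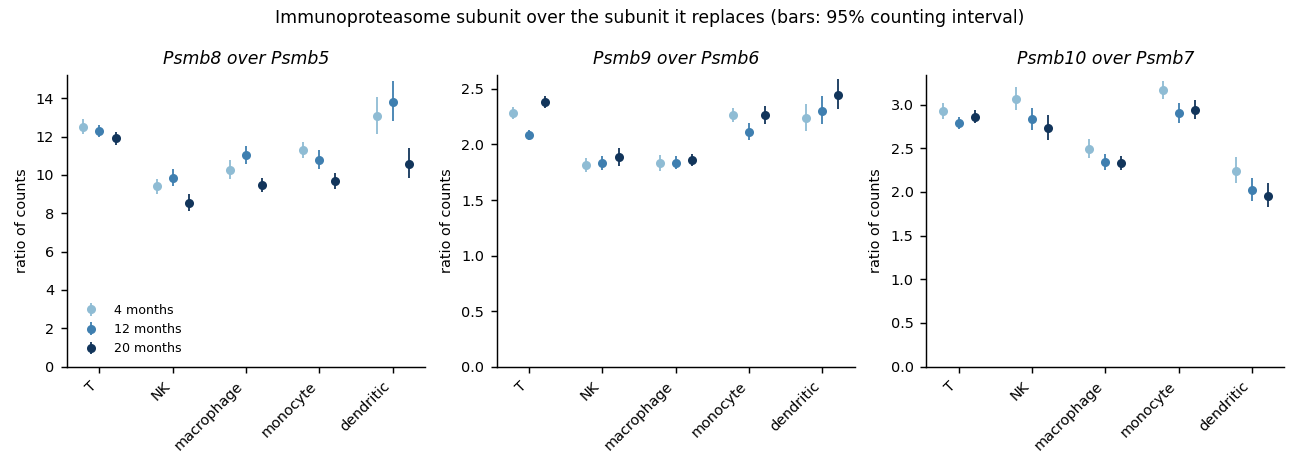
Ratio of the counts of each immunoproteasome subunit to those of the constitutive subunit it replaces (vertical axes, from 0) by cell class and age, with 95% counting intervals. Psmb8 over Psmb5 was lower at 20 months than at 4 months in every class, from 13.1 to 10.6 in dendritic-like cells, and Psmb9 over Psmb6 was 2.26 at both ages in monocyte-like cells and higher at 20 months in the other 4.

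Nlrc5, the class I transactivator, was at 136, 143 and 117 CPM in dendritic-like and 136, 125 and 128 CPM in monocyte-like cells, which overlapped. It was at 105, 98.96 and 108 CPM in T-like cells and lowest in NK-like (69.9, 74.6 and 79.2 CPM) and macrophage-like cells (75.4, 84.3 and 80.7 CPM). The classes with the highest heavy chain or B2m levels thus had the lowest Nlrc5 levels, and T-like cells lay between.

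Clusters spanned a wider range than classes, with the highest cluster mean 2.02-fold (Tapbp) to 3.11-fold (H2-K1) above the lowest among the 15 clusters of the 5 classes with at least 40 cells in each library. Class levels average those of their clusters, so a wider range is largely built in. The small cluster led by Siglech had the highest Tapbp mean (658 CPM), with 539 CPM in the next. It also had the lowest means of H2-D1, B2m, Psmb8, Psmb9 and Psmb10. Among T-like cells, the cluster led by Tnfrsf4 and Areg, with the regulatory T markers Ikzf2 and Foxp3 also among its 10 leading genes, had H2-K1 at 5917, 5362 and 5511 CPM at 4, 12 and 20 months. The cluster led by Dapl1 and Gzmm had 3682, 3531 and 3712 CPM, a difference of 1.48- to 1.61-fold within libraries. Tap1 differed most between this pair, by 2.17- to 2.28-fold, followed by Tap2 at 1.84- to 1.94-fold. Of the 10 genes, 9 were higher in the Tnfrsf4-led cluster in all 3 libraries. Psmb10 was the exception, at 0.766-fold on average. Against the Cxcr6-led cluster, which carries Cd8a and Cd8b1, 8 of 10 were higher, and Psmb10 and Nlrc5 were lower. The share of all genes higher between these clusters was not computed, so these counts have no background beside them.

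Mature dendritic-like cells, led by Fscn1 and Il12b, had H2-D1 at 5474, 4927 and 4684 CPM and B2m at 14862, 13697 and 14459 CPM. The Cd209a-led dendritic-like cluster had 2854, 2622 and 2453 CPM of H2-D1 and 7685, 7064 and 7066 CPM of B2m, without overlap with the Fscn1-led cluster. Its leading genes include the type 2 dendritic marker Cd209a and the type 1 marker Wdfy4, and the type 1 list scored highest in it. The folds between the Fscn1-led and Cd209a-led clusters were 1.97 for B2m, 1.90 for H2-D1 and 1.80 for H2-K1 on average. They were 1.36 for Psmb8 and 0.967 for Tap1, whose direction differed between libraries. The dendritic-like class average thus joined clusters with unlike levels of heavy chains, and the Fscn1-led cluster was 18.1%, 25.0% and 13.8% of that class at 4, 12 and 20 months.

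Plasmacytoid dendritic-like cells, led by Siglech and Ccr9, were few (59, 59 and 49 cells) and had an unlike pattern. Their H2-K1 was 1.55-fold and their Tapbp 1.67-fold that of the Cd209a-led cluster on average, while H2-D1, B2m and all 3 immunoproteasome genes were lower in each library. The count ratio of H2-D1 to H2-K1 was 0.502 ± 0.0703 there, the lowest among the clusters of the 5 classes, and 1.49 ± 0.0842 in monocyte-like cells led by S100a8 and F13a1, the highest. Those monocyte-like cells had H2-K1 at 1778, 1817 and 1796 CPM, against 3245, 3134 and 3305 CPM in the other monocyte-like cluster, led by Acod1 and Cxcl11. All genes but Nlrc5 were higher in the Acod1-led cluster in each library, and Nlrc5 was lower, at 0.79-fold on average.

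The small Il17a-bearing T-like cluster led by Trgc1 and Cd163l1 (55, 68 and 81 cells) stood out by its proteasome genes. Its count ratio of Psmb8 to Psmb9 was 4.05 ± 0.132, above the 1.73 to 3.40 of the other clusters of the 5 classes in any library. Its Psmb9 level averaged 404 CPM, against 459 to 776 CPM in the other T-like clusters plotted.

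**Figure D3:**
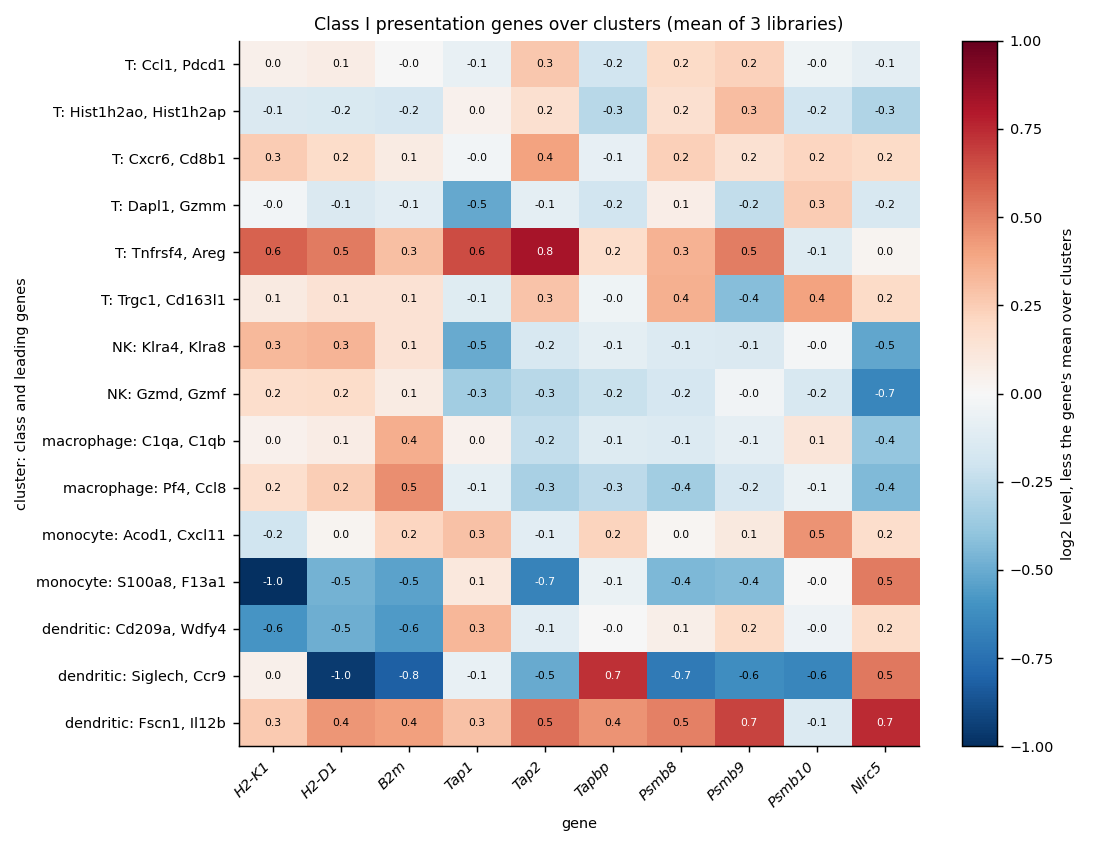
Mean level over 3 libraries of each gene (columns) in the 15 clusters of the 5 classes with at least 40 cells in each library (rows), as log2 CPM less the gene's mean over these clusters. Heavy chains and B2m are high in the Tnfrsf4-led T-like and Fscn1-led dendritic-like clusters and low in the S100a8-led monocyte-like and Cd209a-led dendritic-like clusters.

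Across 47 groups of a cluster in a library, from 18 clusters with at least 50 cells in the library, the log2 levels of B2m and H2-D1 had a Pearson r of 0.90, and those of H2-K1 and H2-D1 of 0.73. Psmb8 and Tap2 had an r of 0.84, and Tap1 and Psmb9, the head-to-head pair, of 0.58. Nlrc5 had an r of -0.32 with H2-K1, -0.27 with H2-D1 and -0.34 with B2m, and of 0.56 with Tapbp. The groups share libraries, free RNA and cell classes, so the values are descriptions. Among 3202 other genes, the 10 with levels most like the mean of the class I genes were Ciao2b, Selenok, Mif4gd, Mthfs, Psme2, Psme2b, Ghitm, Mthfsl, Socs2 and Edf1, with r from 0.87 down to 0.79. Psme2 encodes a subunit of the proteasome activator PA28. Psme2b and Mthfsl resemble Psme2 and Mthfs by name, and counts may have been split between them.

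Age differences were small at the level of classes. At 12 months against 4 months, 0 of the 10 genes were past 1.2-fold in any class, where 12.1%, 8.46%, 9.31%, 15.1% and 17.1% of all genes at 50 CPM or more were past it in T-like, NK-like, macrophage-like, monocyte-like and dendritic-like cells. At 20 months against 4 months, 1 of 50 values was past it, Tapbp in T-like cells, where 23.9%, 16%, 15.3%, 16% and 25% of all genes were past it in the same order. Of the 100 values over both comparisons 81 lay below 0, and 70 did so when classes were scaled by the median of gene ratios in place of total counts. The median of all genes also lay below 0 in every class at both ages. Set against that median, 36 of 50 values were lower at 12 months and 33 of 50 at 20 months. The scaling matters most in T-like cells at 20 months, where it moved every log2 ratio by 0.11 and where the median of all genes was -0.12. Some single clusters went further. In the Il17a-bearing T-like cluster 7 of 10 genes were lower past 1.2-fold at 20 months, where 32.3% of all genes were. In the Cxcr6-led and Tnfrsf4-led T-like and the Fscn1-led dendritic-like clusters 2 each were lower, where 18.0%, 15.3% and 26.7% were. In the NK-like cluster led by Gzmd 2 were higher, where 11.1% were.

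The median log2 ratio over the 10 genes at 12 and 20 months was -0.10 and -0.14 in T-like, -0.04 and -0.10 in NK-like and -0.04 and -0.07 in macrophage-like cells. It was -0.11 and -0.08 in monocyte-like and -0.04 and -0.18 in dendritic-like cells. The medians of all genes at 20 months were -0.12, -0.08, -0.05, -0.03 and -0.02 in T-like, NK-like, macrophage-like, monocyte-like and dendritic-like cells. The class I genes were thus 0.02 below all genes on the log2 scale in T-like, NK-like and macrophage-like cells at 20 months, 0.06 below in monocyte-like and 0.16 below in dendritic-like cells. The order of the classes was not the same at 12 months, when these gaps were 0.08 in T-like, 0.02 in NK-like, 0.01 in macrophage-like, 0.10 in monocyte-like and 0.02 in dendritic-like cells.

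**Figure D4:**
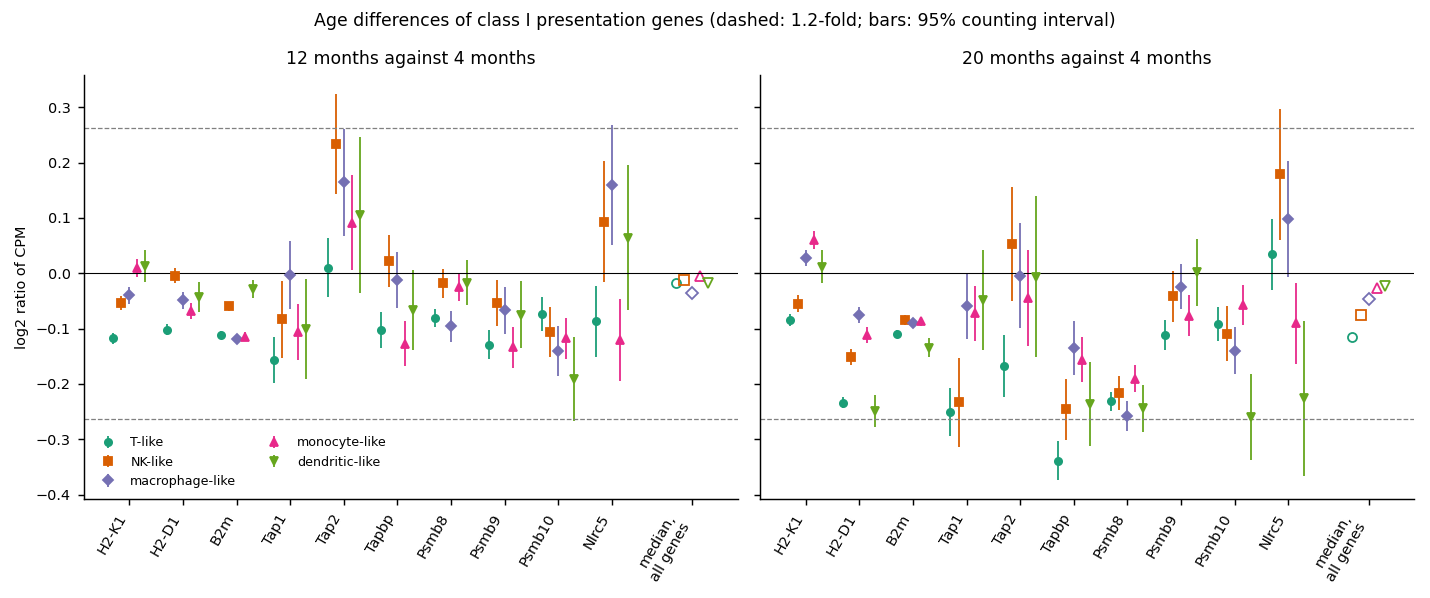
Log2 ratio of CPM at 12 months (left) and 20 months (right) to 4 months for each gene in the 5 classes, with 95% counting intervals, 1.2-fold as dashed lines and the median of all genes as open symbols. Psmb8, Tapbp and H2-D1 lie below 0 in all 5 classes at 20 months, H2-K1 and Nlrc5 on both sides of it.

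The genes differed from each other in how they compared between the 4-month and 20-month libraries. H2-D1 was lower at 20 months in all 5 classes, from a log2 ratio of -0.07 in macrophage-like to -0.25 in dendritic-like cells (95% counting interval -0.28 to -0.22). H2-K1 lay between -0.08 and 0.06. The count ratio of H2-D1 to H2-K1, which does not depend on scaling, was 0.992, 1.00 and 0.895 in T-like cells and 1.13, 1.09 and 0.945 in dendritic-like cells at 4, 12 and 20 months. It was lower at 20 than at 4 months in 5 of 5 classes and in 13 of 14 clusters with at least 50 cells in every library.

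Tapbp was at 400, 372 and 316 CPM in T-like cells at 4, 12 and 20 months, a log2 ratio of -0.34 at 20 months (-0.37 to -0.30) that was -0.23 after scaling by the median of gene ratios and then no longer past 1.2-fold. In the other classes its log2 ratio at 20 months was -0.14 to -0.25, and it was below 0 in 14 of 14 clusters. The median of all genes in these clusters lay between -0.12 and 0.002 at 20 months. B2m was also lower at 20 months in 5 of 5 classes, by at most 0.13 on the log2 scale, and with the other scaling it was within 0.01 of 0 in T-like cells. Tap1 lay between -0.05 and -0.25, with intervals that reached 0 in macrophage-like and dendritic-like cells. Tap2 was higher at 12 months in 5 of 5 classes, by 0.01 to 0.23, and at 20 months lay between -0.17 and 0.05.

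Psmb8 was lower at 20 months in all 5 classes, at 1552, 1468 and 1322 CPM in T-like and 1469, 1452 and 1240 CPM in dendritic-like cells at 4, 12 and 20 months. Its log2 ratios at 20 months were -0.19 to -0.26, and those of Psmb9 were -0.11 to 0.00. The count ratio of Psmb8 to Psmb9 went from 2.37 and 2.32 at 4 and 12 months to 2.01 at 20 months in macrophage-like cells, and it was lower at 20 than at 4 months in 5 of 5 classes and 14 of 14 clusters. Psmb10 was lower at both later ages in each class, by at most 0.26, except that with the other scaling it was at 0.02 in T-like cells at 20 months. Since the 5 classes of an age come from 1 library, their shared direction is not repeated evidence, and a difference between libraries cannot be told apart from one of age.

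Nlrc5 showed no shared direction. Its log2 ratio at 20 months was 0.18 in NK-like cells (0.06 to 0.30), 0.03 in T-like, 0.10 in macrophage-like, -0.09 in monocyte-like and -0.23 in dendritic-like cells. In mature dendritic-like cells it was at 214, 185 and 132 CPM at 4, 12 and 20 months, from 139, 172 and 103 cells. Whether the classes differed in this was not tested, since each rests on 1 library per age.

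Other genes of the pathway were compared in the same way. Of the other class I heavy chains, 6 or 7 of 10 were at 50 CPM or more, 0 were lower past 1.2-fold in any class, and H2-Q4 in monocyte-like cells (log2 0.29 at 12 and 0.27 at 20 months) and H2-Q6 in dendritic-like cells (0.37 at 12 months) were higher. With the other scaling H2-Q4 in T-like cells at 20 months (0.33) and H2-Q6 in monocyte-like cells at 12 months (0.27) passed as well. Of all genes, 5.1%, 4.61%, 5.69%, 7.09% and 7.57% were higher past 1.2-fold at 12 months and 9.81%, 7.95%, 7.62%, 8.01% and 11.3% at 20 months in T-like, NK-like, macrophage-like, monocyte-like and dendritic-like cells. H2-Q7, a nonclassical heavy chain, was higher at 20 months in T-like (0.10), monocyte-like (0.21) and dendritic-like cells (0.13) without passing 1.2-fold. In the same order of classes, 7%, 3.86%, 3.62%, 7.97% and 9.55% of all genes were lower past 1.2-fold at 12 months and 14.1%, 8.02%, 7.65%, 7.98% and 13.8% at 20 months. Among loading and trimming genes, only Hspa5, an endoplasmic reticulum chaperone, was past it, in T-like (-0.42), NK-like (-0.29) and monocyte-like cells (-0.36) at 20 months, with -0.22 in NK-like cells under the other scaling. Of 14 constitutive proteasome subunits, 1 was past it in 1 class, Psmb3 in macrophage-like cells at 20 months (-0.27, and -0.23 with the other scaling), and of the activator genes Psme2 in dendritic-like cells at 20 months (-0.29).

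Of 12 type I interferon response genes, 7, 1, 0, 8 and 12 were lower past 1.2-fold at 12 months, and 6, 11, 3, 8 and 11 at 20 months, in T-like, NK-like, macrophage-like, monocyte-like and dendritic-like cells, and none was higher. The shares of all genes lower past it were 7%, 3.86%, 3.62%, 7.97% and 9.55% at 12 months. At 20 months these shares were 14.1%, 8.02%, 7.65%, 7.98% and 13.8%. Scaled by the median of gene ratios, the counts of these interferon genes at 20 months were 3, 8, 1, 7 and 11. Shares of all genes under that scaling are not given here. The list's median was -0.55 in dendritic-like cells at 20 months, with Cmpk2 at -0.72, Ifit2 at -0.69 and Ifit3 at -0.65. Of the interferon-gamma response genes at 50 CPM or more, 8 of 10 were lower in dendritic-like cells at 20 months, led by Cxcl10, a chemokine (-0.72), and Irgm1, an immunity-related GTPase (-0.53). In T-like, NK-like, macrophage-like and monocyte-like cells 5 of 10, 4 of 9, 1 of 10 and 4 of 11 were lower at 20 months, which became 1, 1, 0 and 4 with the other scaling. At 12 months 3 of 10, 1 of 9, 0 of 10, 5 of 11 and 6 of 10 were lower in T-like, NK-like, macrophage-like, monocyte-like and dendritic-like cells, and the list's median in macrophage-like cells was 0.05. At 20 months the class I genes had a median of -0.18 in dendritic-like cells.

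Ifng, which encodes interferon-gamma, was at 308 CPM at 4 months and 165 CPM at 20 months in T-like cells (log2 -0.89) and at 163 and 89.9 CPM in NK-like cells (-0.86). Regulators at 50 CPM or more were compared in T-like, NK-like, macrophage-like, monocyte-like and dendritic-like cells, in that order. At 20 months 4 of 8, 2 of 8, 1 of 9, 3 of 10 and 1 of 10 were lower past 1.2-fold. Of all genes, 14.1%, 8.02%, 7.65%, 7.98% and 13.8% were. With the other scaling 1, 0, 1, 3 and 1 regulators were, and shares of all genes under it are not given here. Irf8 had the lowest ratio in T-like cells (-0.56, and -0.45 with the other scaling). Irf1, a transcription factor induced by interferon, was lower past 1.2-fold at 20 months in T-like (-0.30), macrophage-like (-0.35), monocyte-like (-0.32) and dendritic-like cells (-0.49). With the other scaling Irf1 was at -0.20 in T-like cells and no longer past it. Socs1 had the lowest ratio in NK-like (-0.33, and -0.26 with the other scaling) and monocyte-like cells (-0.34). In dendritic-like cells 2 of 10 regulators were higher past 1.2-fold at 20 months, where 11.3% of all genes were. They were Ciita, the class II transactivator related to Nlrc5 (0.35), and Ifngr1 (0.30). Rfx5, Rfxap and Rfxank, whose products bind the X box, were under 50 CPM in every class and were not compared.

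**Figure D5:**
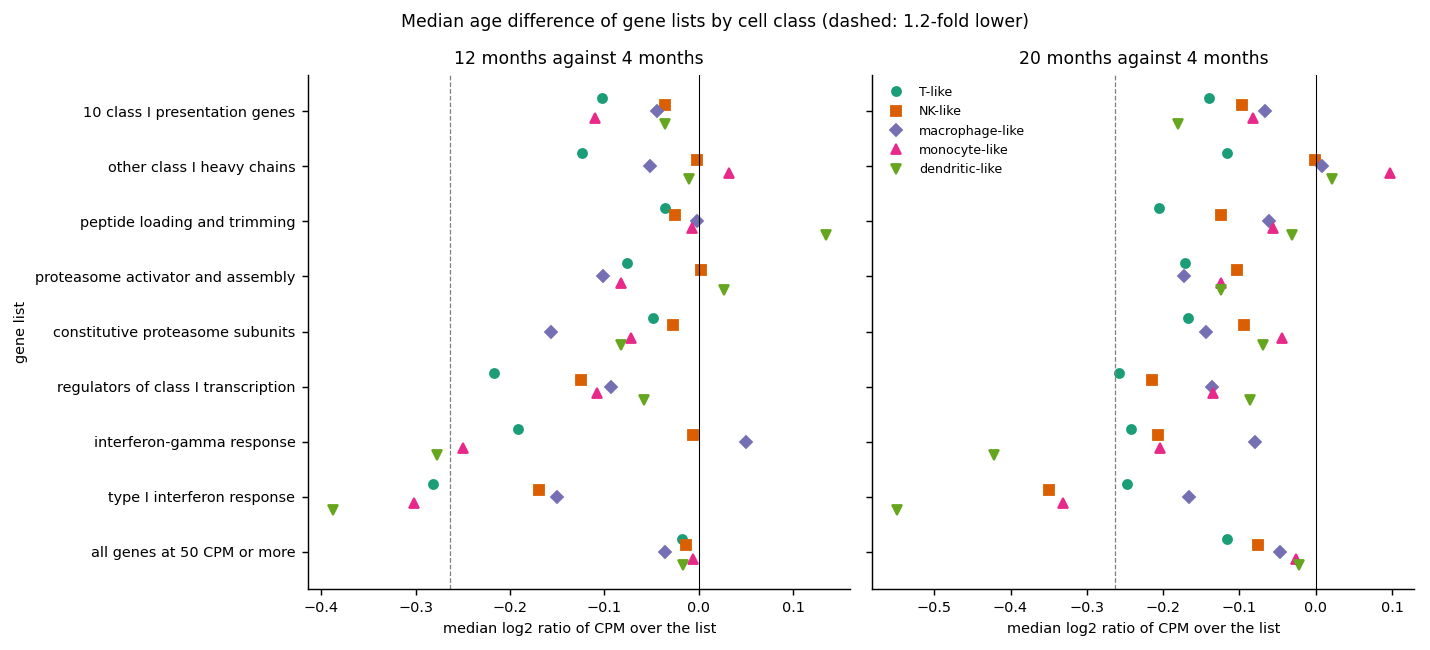
Median log2 ratio of CPM at 12 months (left) and 20 months (right) to 4 months for gene lists (rows) in the 5 classes (symbols), with 1.2-fold lower as a dashed line; the panels have their own horizontal scales. At 20 months the type I interferon list lies at -0.55 in dendritic-like cells and the 10 class I genes at -0.18.

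Genes of dissociation and early response differed between the ages as well. Their list median was -0.47, -0.42, -0.42, -0.24 and -0.33 at 20 months in T-like, NK-like, macrophage-like, monocyte-like and dendritic-like cells. At 12 months it was 0.04, 0.18, 0.40, 0.30 and 0.10 in the same order. In dendritic-like cells at 20 months Fos was at -0.62 and Jun at -0.56. There 6 of 11 of these genes were lower past 1.2-fold and 2 were higher, where 13.8% and 11.3% of all genes were. The median mitochondrial share of counts was 2.02%, 1.95% and 2.16% at 4, 12 and 20 months over all cells. The makeup of the classes differed too: the Tnfrsf4-led cluster, with the highest heavy chain levels among T-like cells, was 14.96%, 9.95% and 7.91% of that class. With equal weight per cluster, the median over the 10 genes lay below 0 in every class at both ages. The median of all genes under that weighting is not given here. The part of class makeup, of the early response genes and of free RNA in the age differences was not tested.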

How the data were processed

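The authors deposited raw counts per gene and cell, 1 matrix per age. STAR 2.7.10a and GRCm38 are named in the submitters' processing notes, while cell calling, use of strand and the unit counted (reads or molecules) are not given in the sources used here. Versioned gene identifiers matched GENCODE M21 for 98.1%, and H2-D1 was matched without its version.

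The 10 genes, the gene lists and the marker lists were chosen with earlier results of these data known. The genes the text names are all 10 members, up to 3 genes per list, class and direction past 1.2-fold, and the 10 genes most like the members' mean. H2-Q7, which is under 1.2-fold, was added after its values were seen, as were the clusters described singly and the pairs of members whose count ratios are given.

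Cells with at least 500 counts, at most 15% mitochondrial and at most 20% haemoglobin counts were kept, and the 6% with the highest Scrublet doublet score per library were removed (863, 879 and 881 cells; the tool's own threshold marked 169, 118 and 143). The 3 libraries were clustered together with scanpy 1.11.5 (2000 variable genes, 30 components, 15 neighbours, Leiden resolution 1, seed 0, no batch correction) without the 10 genes, the list genes and 15 library-specific genes. Clusters were named by their best marker score, which had to reach 0.4, exceed that of the next class by 0.1 and rest on at least 3 detected markers. The haemoglobin filter, the scoring rules, the margin and the library-specific genes were set after clusters had been seen, over 3 rounds of clustering, from the composition and names of the clusters. One cluster of 400 cells stayed unnamed.

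Counts were summed per class and library and scaled to the class total (CPM). The sums held 6693470 to 50183749 counts. Levels have exact Poisson intervals and ratios conditional exact binomial intervals, both at 95%. The interval code was tested on simulated counts. A value was called past 1.2-fold among genes at 50 CPM or more in at least 1 of the 2 libraries compared. Cluster correlations used log2(CPM + 10). Promoter sequences are from RefSeq for GRCm38.p6.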

Additional observations from a re-analysis of the deposited data

Results flagged for a closer look

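A pair of genes from the class II presentation list, compared beside the class I genes, went past 1.2-fold in opposite directions in different cell classes. H2-Aa, a class II alpha chain, had a log2 ratio at 20 months against 4 months of 0.33 in T-like and -0.29 in macrophage-like cells. Scaled by the median of gene ratios, the value in macrophage-like cells was -0.25, under 1.2-fold. H2-DMb1, a subunit of the class II peptide exchanger, had a log2 ratio at 12 months against 4 months of 0.29 in NK-like and -0.34 in dendritic-like cells. The difference between classes was not tested, since each value rests on 1 library per age. Free RNA differed as well: the macrophage genes C1qa, C1qb and C1qc summed to 3.94%, 5.14% and 6.31% of their macrophage-like level in T-like cells at 4, 12 and 20 months, and its part in the values for T-like and NK-like cells was not tested. With counts summed per class, none of the 10 class I genes went past 1.2-fold in opposite directions. With equal weight per cluster Nlrc5 did so at 20 months, higher in NK-like and lower in dendritic-like cells.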

How the results depend on the processing

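The median over the 10 genes lay below 0 in all 10 comparisons under each of 9 alternatives. Among these, keeping only genes at 50 CPM or more could not change it, since all 10 genes passed. Looser naming of clusters changed the T-like class (18001 in place of 17601 cells) and left the other classes as they were. The median over the 10 genes left the range between the medians of the genes' own lower and upper counting limits in these cases. That range is not an interval of the median itself. With median-of-ratios scaling it was -0.0759 and -0.0316 in T-like cells at 12 and 20 months, -0.0266 in NK-like cells at 20 months, and -0.00574 and -0.0228 in macrophage-like cells at 12 and 20 months. With libraries clustered separately it was -0.0329 in T-like and -0.0882 in macrophage-like cells at 12 months and -0.144 in monocyte-like cells at 20 months. With equal weight per cluster it was -0.0783 in T-like and -0.0907 in dendritic-like cells at 12 months. It was -0.0557 in T-like cells at 12 months among cells with at least 5000 counts, -0.0673 in macrophage-like cells at 12 months as a mean of per-cell CPM, and -0.108 in macrophage-like cells at 20 months with no doublet removal.

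The number of values past 1.2-fold was 1 of 100, and became 0 with median-of-ratios scaling, 4 with per-cell means, 2 with no doublet removal, 4 among cells with at least 5000 counts, 2 at resolution 2, 3 with separate clustering and 4 with equal weight per cluster. Tapbp in T-like cells at 20 months was among them in each but the first. With equal weight per cluster 2 of the 4 were higher, and under the other settings all values past 1.2-fold were lower. Shares of all genes past 1.2-fold under these settings are not given here. Ifng in T-like cells at 12 months reversed to 0.24 with equal weight per cluster. With no doublet removal the mean log2(CPM + 10) over the 10 genes in monocyte-like cells was 9.435 over libraries and 9.503, 9.398 and 9.404 at 4, 12 and 20 months, lower than with removal. The border of macrophage-like and monocyte-like cells depends on the clustering: 6241 cells were macrophage-like here, 5118 at resolution 2, 3129 with no doublet removal and 9217 with separate clustering, with 400, 8790, 7959 and 2155 cells unnamed. The cause was not tested. No paired analysis was possible because each age has 1 library.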

Other observations

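The spaced X2 and Y box letters shared by H2-K1, H2-D1 and B2m occur upstream of 26 of 27025 genes in the RefSeq table. Among the others are H2-M3, a nonclassical class I heavy chain, and Ghitm, which was also among the 10 genes with levels most like the mean of the class I genes. The spacing was read from the members' promoters, and the overlap was noticed after both lists had been made, so it is given as a description.

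The 5 genes with levels most opposite to the mean of the class I genes over the 47 cluster and library groups were mt-Nd4, mt-Nd5, mt-Nd2, Cebpz and mt-Co1, with r from -0.75 to -0.66. 4 of them are encoded in the mitochondrial genome, whose share of counts also differs with cell quality.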
